A study of Mus musculus with 6 samples.

Results

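Binding of the transcription factor T-bet was examined around Foxp3, Ikzf2 and Ikzf4, genes that encode factors of regulatory T cell (Treg) identity. The members are all peaks that overlap 1 of 3 windows of the mouse build mm9 set around these genes: chrX:7080000-7240000 for Foxp3, chr1:69450000-69850000 for Ikzf2 and chr10:127980000-128160000 for Ikzf4. The windows hold 7 of the 8925 peaks in the 3 deposited lists. The list of T-bet knockout (KO) cells had no peak in any of the windows. All 7 came from wild-type (WT) replicate 1, with 1 in the Foxp3 window, 1 in the Ikzf2 window and 5 in the Ikzf4 window, and WT replicate 2 had none. Replicate 1 also supplied 7996 of all 8925 peaks, against 78 in the KO list and 851 in replicate 2. The split of the 7 peaks lies near these shares and is no result about the windows.

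The series used chromatin immunoprecipitation with sequencing (ChIP-seq) to locate T-bet in mouse induced Treg (iTreg) cells. The groups were T-bet KO iTreg cells (1 ChIP library) and WT iTreg cells (2 ChIP libraries), all of strain Balb/c and all precipitated with the same rabbit serum against T-bet. Both genotypes had been made the same way: naive CD4+ T cells from mice aged 4 to 10 weeks were activated on plates coated with antibodies to CD3 and CD28, each at 10 µg/ml, and cultured for 7 days with TGF-β1 at 33 ng/ml and IL-2 at 20 ng/ml. The cells are therefore Treg cells made in culture, not Treg cells taken from a tissue. The KO allele, the number of mice per library and whether the WT libraries came from separate mice or cultures are not stated in the labels. Peak lists show neither T-bet protein nor expression of Foxp3, Ikzf2 or Ikzf4, so neither the knockout nor the iTreg label could be checked against markers.

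T-bet is a T-box factor that directs T helper 1 differentiation, and Treg cells that make it are known for restraining type 1 inflammation. Foxp3 is a forkhead factor, encoded on the X chromosome, without which the Treg lineage fails. Ikzf2 (Helios) and Ikzf4 (Eos) are zinc finger proteins of the Ikaros family. Helios is common in Treg cells that arise in the thymus and supports their stability, and Eos works with Foxp3 as a co-repressor at genes that Treg cells keep silent. TGF-β signalling is the main signal that induces Foxp3 in naive CD4+ T cells in culture.

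The sequences of the peaks themselves need an mm9 genome, which was not used here. The promoter of Foxp3 is shown instead, as the start of the gene that defines the lineage. It comes from RefSeq on another build (GRCm38.p6, chrX:7579426-7579675, plus strand) and covers the 250 bases before the first of 2 annotated starts, so no mm9 peak can be placed on it.
Foxp3 promoter: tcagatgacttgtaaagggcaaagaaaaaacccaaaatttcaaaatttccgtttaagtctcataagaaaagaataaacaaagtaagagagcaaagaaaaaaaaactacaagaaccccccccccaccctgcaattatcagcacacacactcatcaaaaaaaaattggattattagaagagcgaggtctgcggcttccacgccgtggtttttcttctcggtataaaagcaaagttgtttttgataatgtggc
The T-box core GGTGTGA was searched on both strands, together with the shorter GGTGTG that lies within it. Neither was found in the 250 bases before either of the 2 Foxp3 starts, and no letters are therefore in capitals. Over all 32851 RefSeq promoter windows of this length, 3.33% held GGTGTGA and 16.3% held GGTGTG. The absence of these letters says nothing about binding of T-bet. RefSeq promoters for Ikzf2 and Ikzf4 were not used here.

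The Foxp3 window had no peak in the T-bet KO list, 1 peak in the WT replicate 1 list and no peak in the WT replicate 2 list. The peak lay at chrX:7182458-7182648, 22.6 kb above the centre of the window, and was 191 bp wide. Its score of 151, a value that the authors' peak caller gave each peak and whose scale is not stated, was the highest of the 7 window peaks. It exceeded 70.8% of the scores in its own list, and it ranked 22 among the 97 replicate 1 peaks on X. The nearest replicate 1 peaks outside the window, with scores of 126 and 85.9, were 55.9 kb before it and 179 kb after it. The nearest peak of the other lists was 113 Mb from the Foxp3 window peak in the KO list and 3.65 Mb from it in replicate 2.

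Replicate 1 had few peaks on X, with 0.582 per Mb against 3.01 per Mb over all chromosomes. One peak in 160 kb was therefore more frequent elsewhere than on X. When each chromosome was divided into windows of 160 kb, 7.20% of the 1041 windows on X held at least 1 replicate 1 peak, against 23.5% of the 16582 windows of all chromosomes. Of the windows of all chromosomes with exactly 1 replicate 1 peak, 7.09% also held a replicate 2 peak. On X this was 6 of 65, or 9.23%. In the KO list, 0.350% of the 160 kb windows of all chromosomes held a peak, and in replicate 2 3.81%. Among the windows on X the shares were 0.288% in the KO list and 1.44% in replicate 2. An empty Foxp3 window was thus the common state in both of these lists. In the RefSeq annotation of GRCm38.p6, used here for gene order only, Foxp3 overlaps Ccdc22 and is followed by Cacna1f and Syp, with Ppp1r3f before it. The peak cannot be assigned to Foxp3 rather than to one of these neighbours.

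The Ikzf2 window had no KO peak, 1 peak in WT replicate 1 and none in WT replicate 2. The peak was the narrowest of the 7, at 139 bp, and lay at chr1:69503322-69503460, 146.6 kb below the window centre. Its score of 133 exceeded 64.4% of the scores in its list. The nearest peak of the KO list was 15.6 Mb away and that of replicate 2 was 2.79 Mb away. Replicate 1 itself was sparse here, with its next peaks 195 kb before the window (score 125) and 1.20 Mb after it (score 85.4).

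The density in the Ikzf2 window was 2.50 replicate 1 peaks per Mb (95% Poisson interval 0.0633 to 13.9), against 2.91 per Mb over chromosome 1. Among windows of 400 kb, 0.815% held a KO peak, 40.2% at least 1 replicate 1 peak (39.6% of those on chromosome 1) and 8.54% a replicate 2 peak. Of the 400 kb windows with exactly 1 replicate 1 peak, 7.16% also held a replicate 2 peak. Holding at least 1 replicate 1 peak was thus common at this width. With 1 peak and so wide an interval, the density of the Ikzf2 window cannot be placed above, at or below that of chromosome 1. No other protein-coding gene lies within a span of 400 kb centred on Ikzf2 in the GRCm38.p6 annotation, where Erbb4 precedes it and Spag16 follows it. That span was not compared with the mm9 window, and the peak cannot be assigned to Ikzf2 by position alone.

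**Figure D1:**
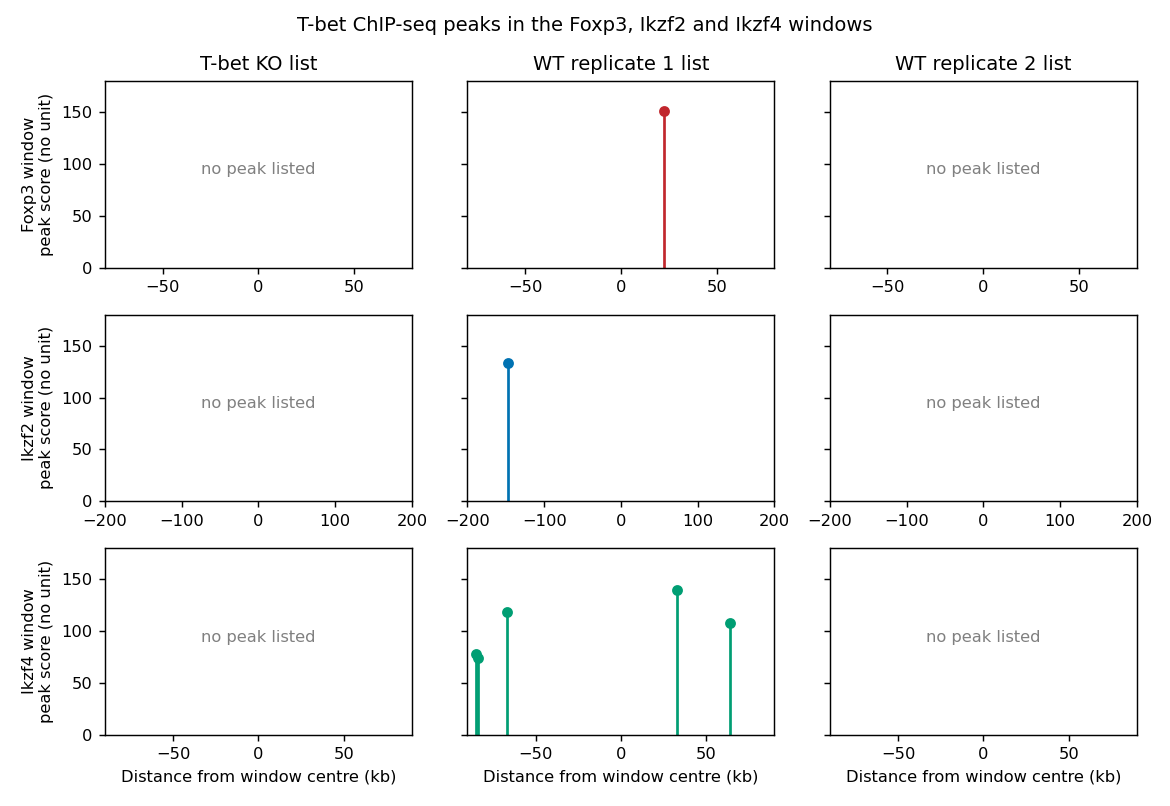
Peaks of the 3 lists (columns) in the Foxp3, Ikzf2 and Ikzf4 windows (rows). The horizontal axis is the distance from the window centre in kb, and each stem is 1 peak with its deposited score on the vertical axis. The T-bet KO and WT replicate 2 columns are empty, and WT replicate 1 has 1, 1 and 5 peaks.

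Around Ikzf4, the KO list had no peak, WT replicate 1 had 5 peaks and WT replicate 2 had none. The replicate 1 peaks spanned 149 kb and fell into a lower group of 3 and an upper group of 2 with 99.3 kb between them, as the plot of peaks by distance shows. The lower group opened with a pair of peaks 1.07 kb apart, chr10:127984849-127984994 (score 78.0) and chr10:127986065-127986210 (score 73.6). Both were 146 bp wide. They were the lowest of the 7 window peaks and exceeded 10.4% and 2.21% of the scores in the list. The score of 73.6 was shared by 212 replicate 1 peaks.

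The other 3 Ikzf4 peaks were stronger. The third, chr10:128002974-128003129, had a score of 119 and lay 16.8 kb above the pair. The fourth, chr10:128102460-128102641, had the highest score of the window, 140, which exceeded 66.9% of the list. The fifth, chr10:128133604-128133802, was the widest of the 7 window peaks at 199 bp and scored 107, near the list's median of 108. Just outside the window, 6.40 kb below its edge, stood a further replicate 1 peak with a score of 77.1. The next one above the window was 1.01 Mb away. With all windows extended by 50 kb, the replicate 1 count rose from 7 to 9. At every other window edge the nearest replicate 1 peak was more than 50 kb away, so the added peaks lay below the Ikzf4 window. The Ikzf4 count therefore depends on where its lower edge was set. The nearest replicate 2 peak was 0.879 Mb from the first Ikzf4 peak, and the nearest KO peak was 44.6 Mb from it.

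This window was dense in replicate 1, with 27.8 peaks per Mb (95% Poisson interval 9.02 to 64.8, counting error only) against 3.76 per Mb over chromosome 10. Replicate 1 peaks were unevenly spread, and 74.5% of the 180 kb windows held none. The interval ignores this and is no test of the density. Its 5 peaks include the close pair with scores of 78.0 and 73.6, near the list's lowest score of 70.1. At least 5 replicate 1 peaks of any listed score were found in 2.33% of the 14738 windows of 180 kb. On chromosome 10 the share was 3.74%. Windows with that many replicate 1 peaks often had a replicate 2 peak as well. Of the 135 windows with exactly 5 replicate 1 peaks, 53, or 39.3%, held at least 1 replicate 2 peak. The others, like the Ikzf4 window, held none. Over all 180 kb windows, 0.400% held a KO peak and 4.23% a replicate 2 peak. The gene has close neighbours: in a span of 180 kb centred on Ikzf4, the GRCm38.p6 annotation holds 8 other protein-coding genes, and Rps26, Erbb3, Suox and Rab5b are among its closest. None of the 5 peaks can be assigned to Ikzf4 by position alone.

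**Figure D2:**
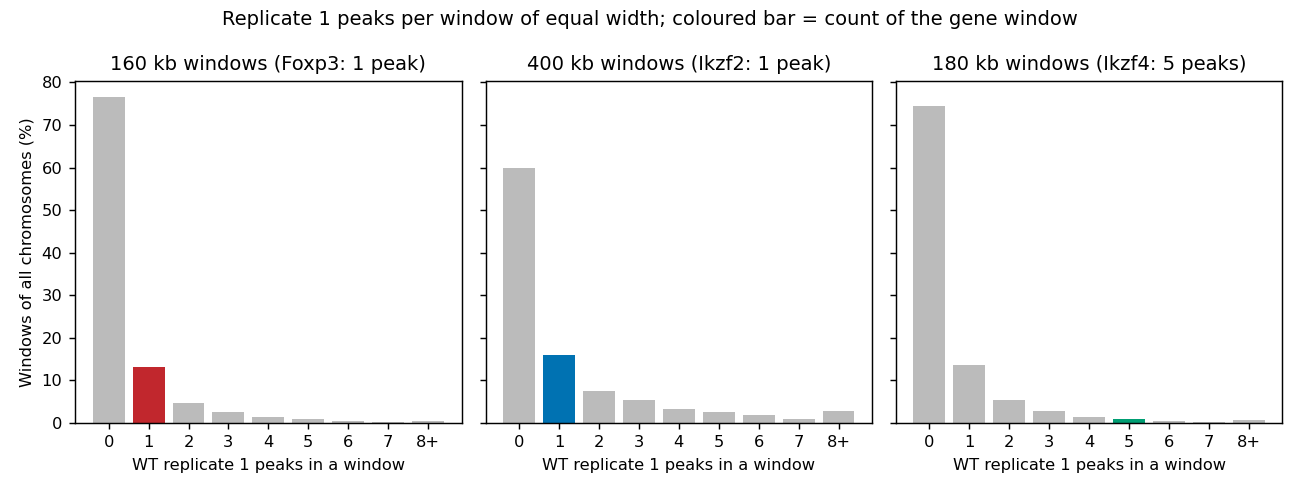
Share of equal-width windows along all chromosomes (vertical axis, %) by the number of WT replicate 1 peaks they hold (horizontal axis), for 160, 400 and 180 kb. The coloured bar marks the count of the Foxp3, Ikzf2 or Ikzf4 window: 1 peak is common in windows of 160 and 400 kb, and 5 peaks are rare in windows of 180 kb.

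The question whether these sites recur was taken up across the windows. Of the 7 replicate 1 window peaks, 0 overlapped a KO peak, against 0.550% of all 7996 replicate 1 peaks, and 0 overlapped a replicate 2 peak, against 9.50%. Both shares were lower among peaks with scores like those of the members. Of the 5490 replicate 1 peaks with scores in the range of the members, from 73.6 to 151, 0.146% overlapped a KO peak and 189, or 3.44% (95% exact binomial interval 2.98 to 3.96%), overlapped a replicate 2 peak. With 7 members, a count of 0 lies near this share and is no result about the members.

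The same holds peak by peak. Among replicate 1 peaks with scores within 10% of that of the Foxp3 peak, 5.77% recurred in replicate 2. For the Ikzf2 peak this share was 4.85%. For the 5 Ikzf4 peaks it ranged between 2.09% and 5.89%. On X, 7 of the 97 replicate 1 peaks, or 7.22%, recurred. Recurrence was frequent only at scores that no window peak reached: it was 16.6% in the ninth decile of the replicate 1 scores and 47.1% in the highest.

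**Figure D3:**
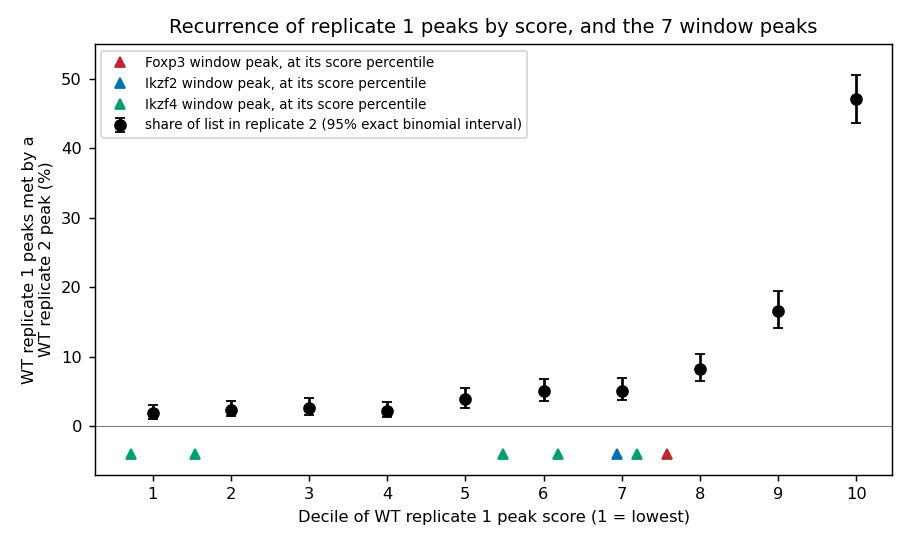
Share of WT replicate 1 peaks that overlap a WT replicate 2 peak (vertical axis, %) by decile of replicate 1 score, with 95% exact binomial intervals. Triangles below the zero line mark the score percentiles of the 7 window peaks, all of which lie in the lowest 8 deciles.

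By score, the 7 peaks were ordinary for their list. Their median score was 119, against 108 for all replicate 1 peaks, with 4 above and 3 below the list's median. None exceeded the list's upper quartile of 165. A score of at least 100 was reached by 5 of the 7, or 71.4%, against 57.3% of the list. Cut to the 851 highest peaks, the length of the replicate 2 list, replicate 1 would end at a score of 256 and keep none of the window peaks. Their widths of 139 to 199 bp had a median of 156 bp, against 175 bp for the list, and 4 of the 7 were below the list's median.

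No test of KO against WT cells was made for the windows, since the KO group had 1 library, and no window peak was present in both WT libraries to give a replicate error of its score. The lists held 78 peaks in the KO library, 7996 in WT replicate 1 and 851 in WT replicate 2. Sequencing depth is unknown for each, so a window with no listed peak may still have been bound, and the 7 replicate 1 peaks are not shown to depend on T-bet. The deposited names of the KO and WT replicate 2 lists open with the same number and that of WT replicate 1 with another. What the number marks is not stated, and if it is a batch, the batch holding all the window peaks consists of WT replicate 1 alone, and batch and library cannot be told apart.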

How the data were processed

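ChIP-seq for T-bet was deposited as 1 peak list for each of 3 libraries. The 3 input libraries were not analysed here. Samples were grouped by their titles. The score in the fifth column of each list is the authors' deposited value, used only to rank and filter peaks within that list. Per the submitters' processing notes, CASAVA, Bowtie2 and MACS 1.4 were used with build mm9; the settings, the read filters and the control behind each list are not stated there. Lists belong to single libraries, so replicates were not pooled. Fragments of 150 to 350 bp were read over 35 or 50 bases, per the labels.

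Positions were converted to count from 1. Peaks sharing at least 1 bp with a window or a peak were counted as overlapping. All window peaks are named. Windows of equal width were tiled from the first base of the 19 autosomes, X and Y (mm9 lengths from GenomeInfoDb 1.38.1), and incomplete last windows were dropped. Shares carry exact (Clopper-Pearson) and densities exact Poisson 95% intervals, which cover counting error only. Peaks are not independent replicates. No test across samples was made, since KO cells gave 1 library and the depth behind each list is unknown. The counting steps were checked on planted intervals, some of them placed at the ends of deposited replicate 1 peaks. The windows, members and comparisons were chosen with earlier results of these data known. Scripts used Python 3.11.15, numpy 2.4.6, pandas 2.3.3 and scipy 1.17.1. Gene order and promoters came from RefSeq tables of GRCm38.p6, and none of their positions were compared with mm9 peaks. Alternatives covered score, overlap, window and ranking choices and leaving out each WT replicate.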

Additional observations from a re-analysis of the deposited data

How the results depend on the processing

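For the KO and replicate 2 counts of 0, only windows extended by 50 kb were of a kind that can add a peak. They added none, but the nearest peak outside any window was 15.2 Mb away in the KO list and 874 kb in replicate 2. The extension, score filter, merging of peaks within 500 bp and midpoint rule were all bound to leave these counts at 0. So none shows whether these counts are stable. The replicate 1 count was 5 with scores of at least 100, 9 with extended windows and 7 with merging or midpoints, against 7 as reported. KO peaks extended by 1 or 10 kb, replicate 2 midpoints within 250 bp and a gap of up to 1 kb gave no member a counterpart. The nearest peaks were 15.6 Mb (KO) and 0.879 Mb (replicate 2) from a member, so these settings could only give 0. A reciprocal overlap of 50%, scores of at least 100 and replicate 1 cut to the length of replicate 2 are stricter. They too could only give 0. Leaving out a WT replicate gave 0 window peaks without a KO counterpart from replicate 2 alone (without replicate 1) and 7 from replicate 1 alone (without replicate 2), so every listed window peak rests on replicate 1. The median member exceeded 56.8% of its list by score, 52.8% of its chromosome's peaks by score and 37.4% of the list by width. The share of equal windows with as many replicate 1 peaks was 7.20% on X alone for Foxp3 (23.5% over all chromosomes) and 3.74% on chromosome 10 alone for Ikzf4 (2.33% over all chromosomes). Tiling shifted by 0.5 of a window gave 23.5%, 40.5% and 2.40% for Foxp3, Ikzf2 and Ikzf4. No paired analysis was possible because the only samples numbered like the WT ChIP libraries are inputs, which were not analysed here, and KO cells gave 1 library. Unknown depth limits every count of 0.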
